A study of Homo sapiens with 36 samples.

Results

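A pair of short hairpin RNAs against KDM5A was compared directly with each other, shKDM5A-2 against shKDM5A-1, within the human lines 293T and MDA-MB-231. The libraries were chosen by their labels, which gave 12 of the 36 libraries of the series, 3 for each hairpin in each line. 293T is an embryonic kidney line and MDA-MB-231 a breast cancer line, and both were grown in DMEM with 10% fetal bovine serum and 1% penicillin and streptomycin. Each line therefore has 1 group per hairpin, 4 groups in all. All 12 libraries therefore came from cells with a KDM5A hairpin. The 3 shControl libraries of each line stayed out of the fits and are given as a description, to place both hairpins, except where a fit with the controls is named as an alternative. The labels give no hairpin sequence, vector, time after delivery or selection, and leave unsaid whether replicate libraries were grown as separate cultures, so the p-values measure the spread between these libraries, which may be technical. In such bulk samples, fewer cells of a kind and less RNA per cell cannot be told apart.

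KDM5A is a demethylase that removes methyl groups from lysine 4 of histone H3, a mark of active promoters, and KDM5B and KDM5C are its paralogs. A short hairpin RNA is cut by Dicer, and its guide strand directs an Argonaute complex to transcripts that pair with it along its whole length. Like a microRNA, a guide can also lower other transcripts whose 3′ UTRs pair only with its seed, the bases near its 5′ end. The question here is which transcripts differ between hairpins directed at the same gene, and which of these differ in the same direction in both lines.

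RNA was sequenced from total RNA, and the deposited values are estimated counts per gene. Total counts ran from 17213216 to 21574335 in the 6 shKDM5A libraries of 293T and from 16611711 to 19173174 in those of MDA-MB-231. CPM values below, counts scaled to a common library total, use TMM factors (trimmed mean of M values) over the 6 libraries of a line. The scaling factors separated the hairpins, from 0.979 to 0.984 with shKDM5A-1 and 1.02 with shKDM5A-2 in 293T, and from 0.964 to 0.969 and 1.03 to 1.04 in MDA-MB-231. Reads of the 15 mitochondrial genes made up 3.91% to 3.98% with shKDM5A-1 and 3.70% to 3.88% with shKDM5A-2 in 293T, and 9.09% to 9.21% and 9.68% to 9.89% in MDA-MB-231. The part of these shifts in the results was not tested. Of 18 markers of 293T, 16 were at 1 CPM or more in 293T and 6 in MDA-MB-231, and of 22 markers of MDA-MB-231, 22 were in MDA-MB-231 and 14 in 293T. Summed over the list, the MDA-MB-231 markers came to 11110 to 11210 CPM with shKDM5A-1 and 9605 to 9659 with shKDM5A-2 in that line. In 293T, the 293T markers came to 2159 to 2199 and 2464 to 2494 CPM. Of 18 markers of other cell types, 4 reached 1 CPM in each line. Their sum was 53.5 to 58.3 CPM with shKDM5A-1 and 80.1 to 80.6 with shKDM5A-2 in 293T, and 104.1 to 115.7 and 108.1 to 110.9 in MDA-MB-231.

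KDM5A (chr12:280129-389454, minus strand, GRCh38) was slightly higher with shKDM5A-2 than with shKDM5A-1. In 293T it stood at 27.6, 27.5 and 26.1 CPM with shKDM5A-1 against 30.7, 32.6 and 31.0 with shKDM5A-2, against 66.7 ± 0.672 (SD, n = 3) in shControl. In MDA-MB-231 it stood at 16.0, 17.4 and 16.8 CPM with shKDM5A-1 against 19.4, 18.4 and 18.6 with shKDM5A-2, against 50.6 ± 4.12 (SD, n = 3) in shControl. All shKDM5A libraries lay below every control library. The hairpins did not overlap at KDM5A in either line, as at 56.8% of all genes tested in 293T and 62.4% in MDA-MB-231. The log2 fold change of shKDM5A-2 over shKDM5A-1 was 0.22 (SE 0.05, adjusted p = 0.00127) in 293T and 0.17 (SE 0.07, adjusted p = 0.0359) in MDA-MB-231, by edgeR's quasi-likelihood test with Benjamini-Hochberg adjustment over all genes of the line, which is the test behind every adjusted p below unless another is named. The MDA-MB-231 call is not firm. DESeq2 gave an adjusted p of 0.167, and leaving out any 1 of 5 of the 6 libraries raised it to between 0.0502 and 0.137 (all but shKDM5A-1 replicate 2, without which it was 0.0355). KDM5B, the paralog often raised in cancers, was lower with shKDM5A-2, with a log2 fold change of -0.27 (SE 0.03, adjusted p = 2.03e-08) in 293T and -0.11 (SE 0.04, adjusted p = 0.0109) in MDA-MB-231. The latter was no longer called without shKDM5A-1 replicate 2 (adjusted p = 0.0753) or shKDM5A-2 replicate 2 (adjusted p = 0.0703). KDM5C, an X-linked paralog, went opposite ways, with -0.10 (SE 0.02, adjusted p = 5.67e-04) in 293T and 0.14 (SE 0.03, adjusted p = 2.61e-04) in MDA-MB-231, and the difference between lines was 0.23 (SE 0.04, adjusted p = 1.19e-05).

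The hairpins gave different levels at about every second gene. In 293T, 8463 of 16802 genes tested were called at an adjusted p under 0.05 (50.4%), 4158 higher with shKDM5A-2 (24.7%) and 4305 lower (25.6%). In MDA-MB-231, 8711 of 15089 were called (57.7%), 4338 higher (28.7%) and 4373 lower (29%). Most of these differences were small. The median absolute log2 fold change over all genes was 0.202 in 293T and 0.23 in MDA-MB-231. With a minimum of 1.5-fold as well, 1751 genes remained in 293T (10.4%), 1272 higher (7.57%) and 479 lower (2.85%), and 2207 in MDA-MB-231 (14.6%), 1288 higher (8.54%) and 919 lower (6.09%). The share of calls that were higher went from 49.1% to 72.6% in 293T and from 49.8% to 58.4% in MDA-MB-231 under that minimum.

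Many of these differences recurred across lines. Of 13743 genes tested in both, 3688 were called the same way (26.8%), 1569 higher with shKDM5A-2 (11.4%) and 2119 lower (15.4%), and 1192 were called opposite ways (8.67%), 546 of them higher only in MDA-MB-231 (3.97%) and 646 higher only in 293T (4.7%). At 1.5-fold in both lines, 396 genes went the same way (2.88%), of which 247 genes were higher (1.8%), 149 were lower (1.08%) and 44 went opposite ways (0.32%). The 247 higher genes were 35.7% of the 293T list of higher genes and 25.7% of the MDA-MB-231 list, where 7% and 5.04% of all genes tested in both stood on the other line's list. The 149 lower genes were 37.9% of the 293T list of lower genes and 19.1% of the MDA-MB-231 list, where the shares of all genes were 5.69% and 2.86%. Lists in opposite directions shared 31 genes (293T higher, MDA-MB-231 lower) and 13 genes (the reverse). Across the 13743 genes the log2 fold changes of both lines had a Pearson r of 0.347 and a Spearman rho of 0.355, and 62.4% had the same sign. The lines share no library but share the hairpins, and genes are not independent replicates.

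**Figure D1:**
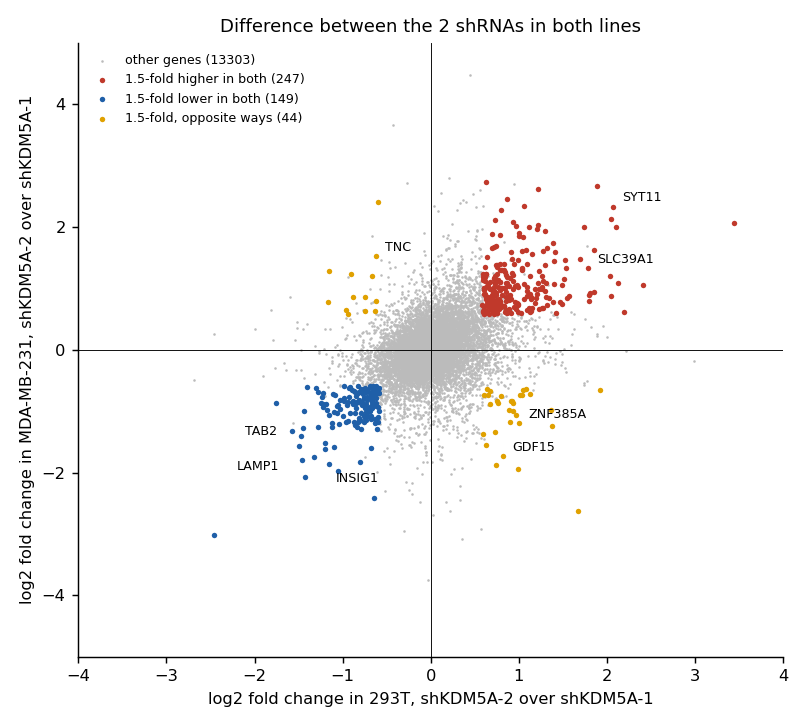
Log2 fold change of shKDM5A-2 over shKDM5A-1 in 293T (x axis) against MDA-MB-231 (y axis), 1 point per gene tested in both lines. Red and blue points are the 247 higher and 149 lower genes, by 1.5-fold or more in both lines, yellow points the 44 that went opposite ways, and 2 genes lie outside the plotted range.

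The genes that were lowest with shKDM5A-2 in both lines encode membrane, signalling and zinc finger proteins. The 12 lowest, ranked by the smaller of both absolute log2 fold changes, were TAB2, LAMP1, SYPL1, PTP4A1, ZNF569, ZNF271P, ZNF426, CNN3, INSIG1, ZNF559, FAM89A and ZNF268, whose log2 fold changes ran from -1.58 to -1.09 in 293T and from -1.85 to -1.20 in MDA-MB-231. The shKDM5A-2 libraries lay below every shKDM5A-1 library for all of these. Over all genes tested, the libraries of both hairpins did not overlap at 56.8% of genes in 293T and 62.4% in MDA-MB-231. TAB2, an adaptor that links TRAF6 to the kinase TAK1 in NF-kB signalling, stood at 109.7, 115 and 118 CPM with shKDM5A-1 against 41.5, 39.6 and 40.4 with shKDM5A-2 in 293T. In MDA-MB-231 its values were 119.8, 112 and 118 and 39.4, 38.4 and 40.2 CPM. It was thus 2.82-fold and 2.96-fold lower with shKDM5A-2. The log2 fold changes were -1.5 (SE 0.04, adjusted p = 9.35e-25) and -1.56 (SE 0.04, adjusted p = 2.64e-22). The shControl means were 91.5 ± 2.34 and 97.2 ± 5.78 CPM (SD, n = 3), so shKDM5A-1 lay above the controls and shKDM5A-2 below them. LAMP1, a glycoprotein of the lysosomal membrane, stood at 107, 116 and 106 CPM with shKDM5A-1 against 40.6, 38.6 and 40.4 with shKDM5A-2 in 293T. In MDA-MB-231 it was at 344 ± 9.46 and 99.5 ± 3.62 CPM (SD, n = 3), with all shKDM5A-2 libraries below all shKDM5A-1 libraries. The log2 fold changes were -1.46 (SE 0.04, adjusted p = 1.64e-23) and -1.79 (SE 0.03, adjusted p = 4.68e-26). SYPL1, a vesicle membrane protein related to synaptophysin, stood at 48.1, 51.8 and 52.8 CPM with shKDM5A-1 against 18.7, 17.8 and 18.3 with shKDM5A-2 in 293T, and the shControl mean of 51.4 ± 2.66 (SD, n = 3) lay with shKDM5A-1. Its log2 fold changes were -1.48 in 293T and -1.41 in MDA-MB-231.

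PTP4A1, a membrane-anchored tyrosine phosphatase, stood at 227, 222 and 239 CPM with shKDM5A-1 against 87.9, 92.1 and 94.1 with shKDM5A-2 in 293T. In MDA-MB-231 its values were 311, 318 and 298 and 92.4, 89.1 and 93.4 CPM. The change was larger in MDA-MB-231, -1.75 (SE 0.03, adjusted p = 6.12e-26) against -1.33 (SE 0.03, adjusted p = 9.35e-25), and the difference between lines was -0.44 (SE 0.05, adjusted p = 5.52e-09). CNN3, an actin-binding calponin, had log2 fold changes of -1.20 in 293T and -1.51 in MDA-MB-231. INSIG1, an endoplasmic reticulum protein that holds back the sterol regulator SREBP, stood at 117, 116 and 119 CPM with shKDM5A-1 against 33.2, 31.1 and 33.4 with shKDM5A-2 in MDA-MB-231, where its log2 fold change of -1.85 (SE 0.04, adjusted p = 4.34e-24) exceeded that of -1.16 (SE 0.02, adjusted p = 1.40e-26) in 293T by -0.71 (SE 0.05, adjusted p = 6.56e-14). ZNF569, ZNF426, ZNF559 and ZNF268 encode zinc finger proteins, and ZNF271P is annotated as a pseudogene. ZNF569 stood at 16.3, 16.5 and 17.7 CPM with shKDM5A-1 against 5.11, 6.19 and 5.58 with shKDM5A-2 in 293T, and its log2 fold changes were -1.58 in 293T and -1.33 in MDA-MB-231. Zinc finger genes share stretches of sequence, and reads from near-identical stretches may have been split between them.

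The genes that were highest with shKDM5A-2 in both lines came from several cellular systems. The 12 highest were SYT11, LYPD1, RRAGD, TSR3, HLA-DPA1, CEP19, WDR1, SLC39A1, DNAL4, HIST1H2AG, BTRC and DOHH. For all of these, every shKDM5A-2 library lay above every shKDM5A-1 library in both lines. Over all genes tested, the hairpins did not overlap, in either direction, at 56.8% of genes in 293T and 62.4% in MDA-MB-231. SLC39A1, a zinc importer of the cell surface, stood at 37.6, 39.3 and 37.9 CPM with shKDM5A-1 against 134, 129.8 and 133 with shKDM5A-2 in 293T, against 120.4 ± 3.72 (SD, n = 3) in shControl. In MDA-MB-231 its values were 69.5, 65.9 and 68.1 and 168, 173 and 171 CPM. Its log2 fold changes were 1.79 (SE 0.04, adjusted p = 2.85e-27) and 1.33 (SE 0.03, adjusted p = 9.36e-23). TSR3, which modifies 18S ribosomal RNA, stood at 22.7, 23.5 and 20.9 and 60.9, 64.6 and 66.7 CPM in 293T. In MDA-MB-231 its values were 24.2, 25.1 and 23.6 and 66.5, 67.8 and 66.1 CPM. Its log2 fold changes were 1.52 (SE 0.05, adjusted p = 1.72e-21) and 1.46 (SE 0.05, adjusted p = 4.27e-20), and its shControl means of 58.0 ± 1.29 and 58.4 ± 2.00 CPM (SD, n = 3) lay far nearer shKDM5A-2. RRAGD, a Rag GTPase that passes amino acid signals to mTORC1, stood at 21.4, 19.2 and 19.8 and 65.1, 65.5 and 65.3 CPM in 293T, with 44.7 ± 0.689 (SD, n = 3) in shControl, between the hairpins. Its log2 fold changes were 1.70 in 293T and 1.48 in MDA-MB-231. WDR1, which speeds the disassembly of actin filaments, stood at 287, 277 and 286 and 722, 716 and 709 CPM in MDA-MB-231, and its log2 fold changes were 1.53 in 293T and 1.34 in MDA-MB-231.

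SYT11, a synaptotagmin of vesicle traffic, ranked first of the 12. It stood at 1.43, 1.74 and 1.43 and 6.31, 6.66 and 6.404 CPM in 293T, where shControl was at 1.47 ± 0.308 (SD, n = 3), and at 0.973, 1.27 and 1.33 and 5.38, 6.37 and 6.28 in MDA-MB-231. The log2 fold changes were 2.07 (SE 0.16, adjusted p = 1.24e-12) and 2.33 (SE 0.17, adjusted p = 4.42e-12). In 293T the control thus lay with shKDM5A-1, unlike SLC39A1 and TSR3. BTRC, the substrate receptor of a ubiquitin ligase for beta-catenin and IkB, had log2 fold changes of 1.27 in 293T and 1.62 in MDA-MB-231. HLA-DPA1, a chain of a class II antigen-presenting molecule, had 1.41 in 293T and 1.59 in MDA-MB-231. CEP19, a centrosomal protein, had 1.40 in 293T and 1.45 in MDA-MB-231. DNAL4, a dynein light chain, had 1.30 in 293T and 1.37 in MDA-MB-231, and DOHH, which completes the hypusine residue of eIF5A, had 1.23 in 293T and 1.28 in MDA-MB-231.

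**Figure D2:**
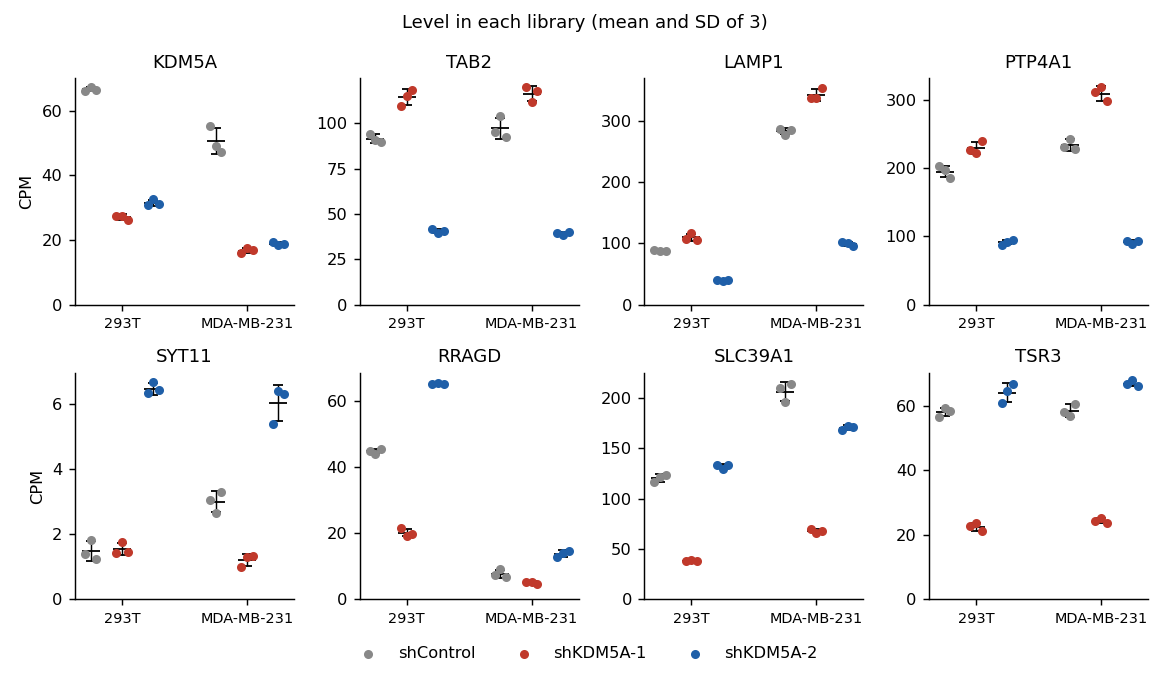
CPM of 8 genes in each of the 3 libraries per group (points) with the mean and SD, in shControl, shKDM5A-1 and shKDM5A-2 libraries of both lines; axes start at 0. TAB2, LAMP1 and PTP4A1 are lowest with shKDM5A-2, and RRAGD, SLC39A1 and TSR3 are lowest with shKDM5A-1.

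Set beside the controls, the genes of both directions differed in which hairpin was more often the nearer. Of the 149 genes at least 1.5-fold lower with shKDM5A-2 in both lines, shKDM5A-1 was the nearer to the control mean in both lines for 107, shKDM5A-2 for 6, and the nearer hairpin differed between lines for 36. Of the 247 higher genes, shKDM5A-2 was nearer in both lines for 113, shKDM5A-1 for 42, and the nearer hairpin differed for 92. Distances are differences of mean log2(CPM + 0.5). The controls lay between the hairpins in both lines for 84 of the 149 and 128 of the 247. Read per line, shKDM5A-1 was nearer for 130 of the 149 in 293T and 120 in MDA-MB-231. Of the 247, it was nearer for 68 in 293T and 108 in MDA-MB-231. Of the 44 genes that went opposite ways, shKDM5A-1 was nearer in both lines for 16 and shKDM5A-2 for 2. The same counts over all genes were not made.

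Short words in the 3′ UTRs of the genes followed these directions. For each 7-base word carried by at least 100 annotated 3′ UTRs (GENCODE 29, longest 3′ UTR per gene, transcript strand only), the log2 fold change was regressed on carrying it, with UTR length and GC content as terms, over 13150 genes in 293T and 12503 in MDA-MB-231. The coefficient is the mean log2 difference of carriers, given with no test, because the words were found on the same contrast. The word AAGCCTT had the lowest coefficient of 16016 words in 293T. It was followed by AGCCTTA, which starts a base later, and then by GCCTTAC, which starts another base later. Joined, these overlapping words read AAGCCTTAC, 9 bases long. Read in MDA-MB-231, they ranked 6, 2 and 1 from the lowest of 15950. The 3 words were set apart with the ranks of both lines seen, so these ranks are no independent check. The next word in 293T, GCCTTAT, ranked 20 in MDA-MB-231. The coefficients of the 3 words were -0.126, -0.117 and -0.116 in 293T and -0.116, -0.151 and -0.199 in MDA-MB-231. They stood in 15.9%, 11.4% and 6.72% of the 3′ UTRs in 293T. In the other direction the highest coefficients belonged to rare words. The 5 highest in 293T and the 4 highest in MDA-MB-231 each held a CG dinucleotide and were carried by 101 to 144 genes. AGGGACA, carried by 14.4% of the 3′ UTRs, had coefficients of 0.127 and 0.12 and ranked 11 in 293T and 5 in MDA-MB-231. Ranked instead by coefficient over its standard error, an order chosen after seeing the data, AGGGACA was first in both lines (11.87 and 9.26), and the 3 lower words ranked 1, 2 and 4 in 293T and 3, 2 and 1 in MDA-MB-231. Over all 15949 words ranked in both lines, the coefficients had a Pearson r of 0.383, and without the UTR length and GC terms r was -0.448. Without these terms the signs of the 4 words held, but in MDA-MB-231 the coefficients of AAGCCTT and AGCCTTA were -0.058 and -0.092 in place of -0.116 and -0.151. GC content went with the fold change in opposite ways, with a Spearman rho of 0.262 in 293T and -0.066 in MDA-MB-231.

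Among the 12 lowest genes, 9 of the 11 with an annotated 3′ UTR carried at least 1 of the 3 words. The first place is shown for the 6 described above that are not zinc finger genes, to set the words in their transcripts, with 8 flanking bases in lower case and the word in capitals.
TAB2: ccctttttAAGCCTTacctgaga
LAMP1: tcagatttAAGCCTTacaaaggg
SYPL1: tacaccttAAGCCTTaacatgta
PTP4A1: agacaaaaAAGCCTTacattaat
CNN3: gaaaaattGCCTTACgtacattc
INSIG1: atatttcaAAGCCTTgaactaag
The places lie in GRCh38 at chr6:149410491-149410513 (plus strand) for TAB2, chr13:113322953-113322975 (plus) for LAMP1, chr7:106091495-106091517 (minus) for SYPL1, chr6:63580861-63580883 (plus) for PTP4A1, chr1:94897600-94897622 (minus) for CNN3 and chr7:155308586-155308608 (plus) for INSIG1. TAB2, LAMP1 and PTP4A1 hold the whole 9 bases, and all 6 places lie in annotated 3′ UTR. ZNF569 and ZNF268 carried none of the 3 words in the 3′ UTR, but 13 and 16 copies of AAGCCTT in the coding sequence, and ZNF268 carried AGGGACA in the 3′ UTR.

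Among the 12 highest genes, all with an annotated 3′ UTR, 5 carried AGGGACA and 0 carried any of the 3 words above. These 5 places are shown in the same way.
SLC39A1: ctgtgcatAGGGACAtattcttt
TSR3: gagacatgAGGGACAtaaatggg
CEP19: agtagtaaAGGGACAagaaacaa
DNAL4: ttctttcaAGGGACAcaggcagc
DOHH: gcctgggtAGGGACAgggtggtg
They lie in GRCh38 at chr1:153959175-153959197 for SLC39A1, chr16:1349367-1349389 for TSR3, chr3:196706751-196706773 for CEP19, chr22:38778978-38779000 for DNAL4 and chr19:3490918-3490940 for DOHH, all on the minus strand. SYT11, LYPD1, RRAGD, WDR1, BTRC, HLA-DPA1 and HIST1H2AG, the other 7, did not carry it in the annotated 3′ UTR.

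Over the full lists, 101 of the 134 genes with an annotated 3′ UTR that were 1.5-fold lower in both lines carried at least 1 of the 3 words (75.4%), against 39 of 205 higher genes (19%) and 2944 of all 11670 genes tested in both (25.2%). AGGGACA stood in 74 of the 205 higher genes (36.1%), in 7 of the 134 lower genes (5.22%) and in 1665 of all 11670 (14.3%). In 293T, 7.25% of AAGCCTT carriers were called and 1.5-fold lower, against 1.94% of the others, and in MDA-MB-231 9.85% against 5.5%. Of GCCTTAC carriers, 8.14% were in 293T, against 2.4% of the others, and 16% in MDA-MB-231, against 5.49%. Of AGGGACA carriers, 14.1% in 293T and 12.9% in MDA-MB-231 were called and 1.5-fold higher, against 6.39% and 6.47% of the others. The words were picked by their coefficients on these same fold changes. An excess of carriers in these directions was therefore built in, and these shares describe its size but are no separate evidence. The same holds for the counts of carriers among the lowest and highest genes given above.

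For the 3 overlapping words, longer matches had lower medians than the shorter words they contain. This order did not hold between words not contained in each other. In MDA-MB-231 carriers of the 7 bases GCCTTAC had -0.091, lower than those of the 8 bases AAGCCTTA. Carriers of AAGCCTT had a median log2 fold change of -0.098 in 293T and -0.038 in MDA-MB-231. Carriers of the 8 bases AAGCCTTA had -0.175 and -0.079, and those of the 8 bases AGCCTTAC had -0.126 and -0.095. The 91 and 89 carriers of the 9 bases AAGCCTTAC had -0.224 and -0.213. Of the last, 17.6% in 293T and 31.5% in MDA-MB-231 were called and 1.5-fold lower. AAGCCTTAC stood in 0.692% and 0.712% of the 3′ UTRs. For AGGGACA the median of carriers was 0.092 in 293T and 0.091 in MDA-MB-231, and 8-base forms with a base added at either end had both smaller and larger medians, from 0.065 to 0.13 in 293T and from 0.082 to 0.132 in MDA-MB-231. More places in 1 UTR also went with larger differences. In 293T the median was 0.013 for genes with none of the 3 words, -0.072 for 1 place, -0.124 for 2 and -0.182 for 3 or more, and in MDA-MB-231 the medians were 0.009, -0.042, -0.057 and -0.125. For AGGGACA they were -0.024, 0.078, 0.156 and 0.17 in 293T and -0.017, 0.079, 0.13 and 0.166 in MDA-MB-231. Genes with more places had longer UTRs, and the medians of the fold change are not adjusted for length. Median lengths were 1060, 2529, 3791 and 5191 bases for the 3 words in 293T. For AGGGACA in MDA-MB-231 the lengths were 1218, 2617, 4267 and 6367 bases. UTR length itself had a Spearman rho with the fold change of -0.042 in 293T and 0.117 in MDA-MB-231. The part of length in these medians was not tested. Because the words were picked on these fold changes, the direction of the carriers' medians is no separate evidence.

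**Figure D3:**
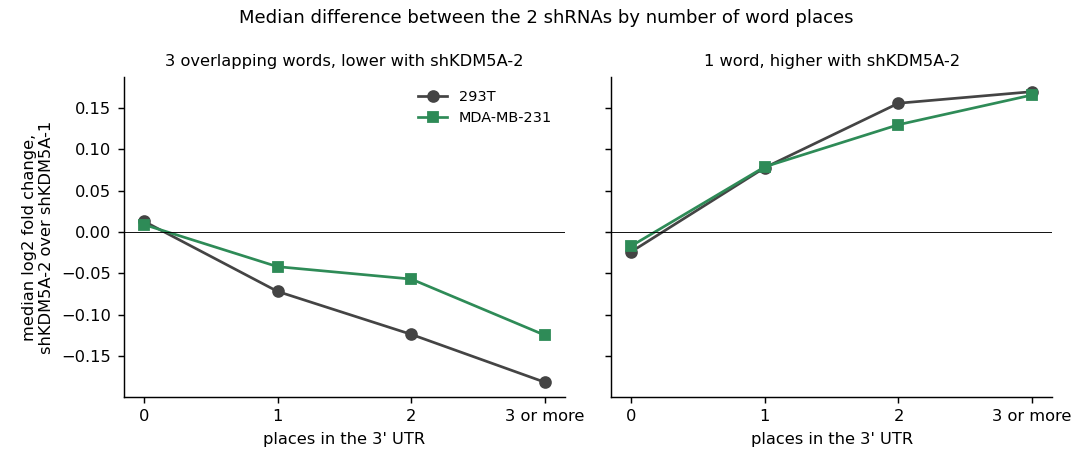
Median log2 fold change of shKDM5A-2 over shKDM5A-1 (y axis) by the number of places in the 3′ UTR (x axis), for the 3 overlapping words (left) and AGGGACA (right), in 293T (circles) and MDA-MB-231 (squares). Medians fall to -0.182 and -0.125 on the left and reach 0.17 and 0.166 on the right at 3 or more places.

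Each kind of word was also read against the controls. The carriers of the 3 words were compared in each library with genes that carried neither these words nor AGGGACA, as the difference of median log2(CPM + 0.5) relative to the mean control. Genes that carried both kinds of word stayed among the carriers of each kind, and the part of this overlap was not tested. In 293T the difference was -0.121, -0.099 and -0.126 in the shKDM5A-2 libraries and -0.031, -0.036 and -0.019 in the shKDM5A-1 libraries. In MDA-MB-231 it was -0.045, -0.042 and -0.038 with shKDM5A-2 and 0.024, 0.032 and -0.021 with shKDM5A-1. The shKDM5A-2 libraries were the lower in both lines, and 1 of the 3 shKDM5A-1 libraries of MDA-MB-231, replicate 3, fell on the other side of 0 from the rest. The shControl libraries ran from -0.010 to 0.012 in 293T and from -0.009 to 0.013 in MDA-MB-231. For carriers of AGGGACA in 293T, the shKDM5A-1 libraries gave -0.12, -0.124 and -0.113 and the shKDM5A-2 libraries -0.019, -0.009 and -0.044. The same order gave -0.066, -0.06 and -0.105 against 0.014, 0.019 and 0.014 in MDA-MB-231. Here the shKDM5A-1 libraries were the lower in both lines. None of these differences is adjusted for UTR length or GC content. Because the words were picked on the contrast of the hairpins, the order of the hairpins here is no separate evidence.

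**Figure D4:**
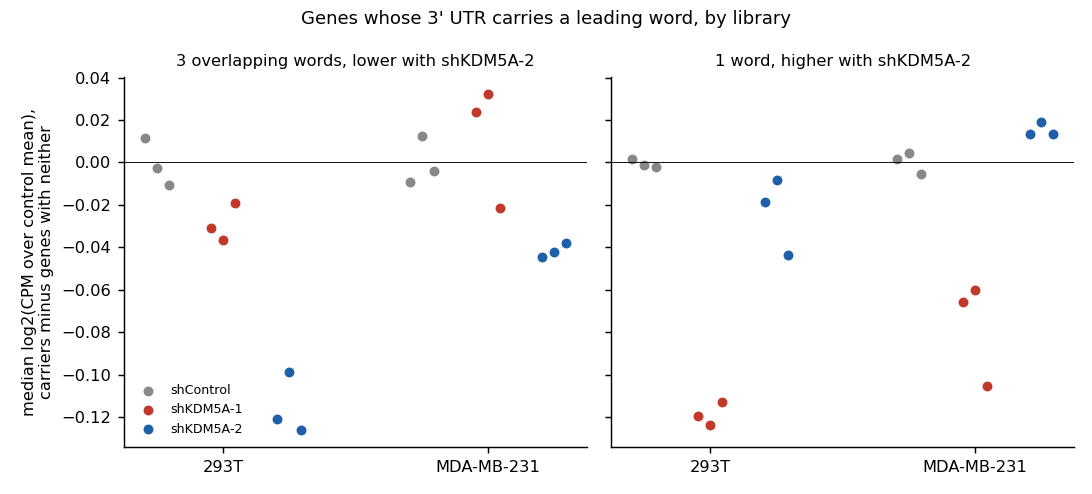
Difference in median log2(CPM over control mean) between genes whose 3′ UTR carries a leading word and genes that carry neither kind (y axis), 1 point per library of shControl, shKDM5A-1 and shKDM5A-2 in both lines. Carriers of the 3 overlapping words (left) are lowest with shKDM5A-2, and carriers of AGGGACA (right) are lowest with shKDM5A-1. Carriers of either kind may also carry the other kind.

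Both kinds of word also occur in the transcript of KDM5A itself, outside its 3′ UTR. They are shown because KDM5A is what both hairpins were directed at, and the hairpin sequences are not given in the sources used here.
KDM5A coding sequence, lower words: cttgaaagAAGCCTTacaaaagg
KDM5A coding sequence, higher word: agacttacAGGGACActtaccta
In the transcript ENST00000399788.6 (chr12, minus strand, 10763 bases) the first word begins at base 3350, runs on to the whole AAGCCTTAC and lies in 1 exon at chr12:313091-313113 of GRCh38. The second begins at base 4292, and its printed stretch, word and flanks together, crosses an exon junction. AAGCCTT occurs at 2 further places, in the 5′ UTR and at base 1412 of the transcript, and AGCCTTA at base 892. For scale, 41.9% of the 15949 ranked words occur somewhere in this transcript and 24.3% in its coding sequence. AAGCCTTAC, joined after the words were seen, occurs in 198 of 19550 annotated coding sequences (1.01%). That share is not adjusted for length, and the coding sequence of KDM5A has 5070 bases. A match is a description of the letters, and what it does was not tested.

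Zinc finger genes were more often lower than higher with shKDM5A-2 in 293T. Of 447 genes with a ZNF symbol tested in 293T, 177 were lower and 48 higher, where 25.6% and 24.7% of all genes were. Of 463 in MDA-MB-231, 119 were lower and 105 higher, both below the shares of all genes there, 29% and 28.7%. With a minimum of 1.5-fold as well, 63 were lower and 9 higher in 293T, where 2.85% and 7.57% of all genes were. In MDA-MB-231, 46 were lower and 17 higher under that minimum, where 6.09% and 8.54% of all genes were. The median log2 fold changes of ZNF genes were -0.14 in 293T and -0.021 in MDA-MB-231, beside -0.003 and 0.008 over all genes. The repeated finger units share a linker, and the word AAGCCTT recurs in many of the coding sequences, with up to 16 copies. The 291 ZNF genes of 293T with AAGCCTT in the coding sequence had a median of -0.242 and the 133 without it -0.013. In MDA-MB-231 the 315 with it had -0.085 and the 126 without it 0.15. Among all genes with no AAGCCTT in the 3′ UTR, those with 3 or more copies in the coding sequence had medians of -0.241 in 293T (144 genes, 86 of them ZNF symbols) and -0.122 in MDA-MB-231 (150 genes, 94 of them ZNF symbols), against 0.019 and 0.004 with 0 copies. With 1 and 2 copies the medians were -0.056 and -0.074 in 293T. In MDA-MB-231 they were 0.006 and -0.023, near that with 0 copies.

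Among 33 gene lists, counts below are members called at an adjusted p under 0.05, where 24.7% of all genes were higher and 25.6% lower in 293T and 28.7% and 29% in MDA-MB-231. Lists were read against those shares and the median of all genes, with no test of a list. Chromatin and RNA interference genes showed mostly small differences. Of 35 H3K4 methyltransferases and KDM5A partners, 5 were higher and 18 lower in 293T and 11 and 12 in MDA-MB-231, with medians of -0.1 and -0.03. RB1, the retinoblastoma protein that binds KDM5A, was lower in both, with log2 fold changes of -0.44 in 293T and -0.44 in MDA-MB-231, and SETD7, a lysine methyltransferase, had -0.78 in 293T and -0.90 in MDA-MB-231. Of 20 genes of the RNA interference machinery, 4 were higher and 10 lower in 293T and 4 and 7 in MDA-MB-231. TSN, which encodes translin, a subunit of the nuclease that clears the passenger strand, had -0.54 in 293T and -0.83 in MDA-MB-231.

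The cytosolic ribosomal protein genes were lower with shKDM5A-2 in both lines. Of 44, 36 were lower and 4 higher in 293T, and all 44 were lower in MDA-MB-231, with medians of -0.14 and -0.39. Among them RPL19 had log2 fold changes of -0.47 in 293T and -0.69 in MDA-MB-231. The scaling factors also separated the hairpins in both lines. With median-of-ratios scaling the medians of this list were again -0.14 in 293T and -0.39 in MDA-MB-231. With controls in the fit they were -0.14 and -0.4. Any other part of the scaling in this result was not tested. Ribosome biogenesis and MYC target genes counted 26 of 34 lower in 293T and 23 in MDA-MB-231, with 5 and 3 higher. MYC had -0.71 in 293T and -0.37 in MDA-MB-231, and DKC1, which makes pseudouridine in ribosomal RNA, had -0.88 in 293T and -0.84 in MDA-MB-231. Mitosis genes counted 21 of 40 lower in 293T and 31 in MDA-MB-231. PLK1, a mitotic kinase, stood at 174, 183 and 183 CPM with shKDM5A-1 against 102, 106 and 109 with shKDM5A-2 in MDA-MB-231 and had -0.64 in 293T and -0.77 in MDA-MB-231. MKI67, the proliferation antigen, went the other way with 0.71 in 293T and 0.32 in MDA-MB-231.

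The histone genes had the median furthest from 0 of the 33 lists in both lines. Of 13 tested in 293T, 7 were higher and 1 lower, and of 11 in MDA-MB-231, 8 were higher and 1 lower, with medians of 0.57 and 1.42. HIST1H1C, a linker histone, stood at 13.4, 13.2 and 13.9 CPM with shKDM5A-1 against 34.4, 36.0 and 32.9 with shKDM5A-2 in MDA-MB-231, and HIST1H2AC at 16.1, 14.8 and 15.9 and 45.5, 48.6 and 47.9. The shKDM5A-2 libraries lay apart above the others, with log2 fold changes of 1.35 (SE 0.06, adjusted p = 1.20e-16) and 1.60 (SE 0.06, adjusted p = 3.67e-19). SLBP, which binds the stem-loop at the end of replication-dependent histone mRNAs, had log2 fold changes of -0.53 in 293T and -1.11 in MDA-MB-231. Histone genes have near-identical copies among which estimated counts may be split. HIST2H3A, which had the highest fitted change in 293T, was at 0 counts in all 3 shKDM5A-1 libraries and at 226, 203 and 245 with shKDM5A-2, yet its copy HIST2H3C was at 145, 146 and 164 and at 237, 256 and 238. Summed, the copies went from 145, 146 and 164 to 463, 459 and 483 counts. In MDA-MB-231 HIST2H3A was at 25, 25 and 0 counts with shKDM5A-1 and 0 in all 3 libraries with shKDM5A-2, whereas the sum went from 25, 25 and 21 to 46, 37 and 39.

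Several stress and metabolic lists counted differently in both lines, and the difference between lines was tested for genes, not for lists. The targets of ATF4, the transcription factor of the amino acid response, were mostly lower with shKDM5A-2 in 293T, 28 of 36 against 4 higher, and mostly higher in MDA-MB-231, 27 of 35 against 6 lower, with medians of -0.29 and 0.32, and 22 were called opposite ways. ASNS, asparagine synthetase, stood at 499, 505 and 500.5 CPM with shKDM5A-1 against 339, 336 and 341 with shKDM5A-2 in 293T, and at 34.7, 38.6 and 34.8 and 87.3, 80.7 and 83.8 in MDA-MB-231. Its log2 fold changes were -0.57 (SE 0.02, adjusted p = 2.17e-20) and 1.22 (SE 0.05, adjusted p = 1.79e-18), and the difference between lines was 1.77 (SE 0.05, adjusted p = 1.04e-23). PSAT1, of serine synthesis, had -0.56 in 293T and 0.51 in MDA-MB-231, and ATF3 had -0.92 in 293T and 0.50 in MDA-MB-231. In the unfolded protein response list 15 of 29 were lower in 293T and 11 in MDA-MB-231. HSPA5, the main chaperone of the endoplasmic reticulum, had -0.81 in 293T and -0.37 in MDA-MB-231.

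Cholesterol synthesis genes and SREBP2 targets were lower in MDA-MB-231, 21 of 25 against 1 higher, with a median of -0.54, whereas in 293T 5 of 24 were lower and 11 higher, with a median of 0.08. SCD, a fatty acid desaturase, had log2 fold changes of -0.15 in 293T and -1.92 in MDA-MB-231. NF-kB targets and cytokines counted 20 of 28 lower and 4 higher in MDA-MB-231, with a median of -0.42, and 2 lower and 4 higher of 17 in 293T, with a median of 0.04. SOD2, a mitochondrial superoxide dismutase, had 0.14 in 293T and -1.31 in MDA-MB-231, and ICAM1, an adhesion receptor, had -1.46 in MDA-MB-231. Hypoxia targets and glycolysis genes counted 29 of 36 lower in MDA-MB-231 and 17 of 34 higher in 293T, with medians of -0.36 and 0.09.

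The p53 targets were higher with shKDM5A-2 in 293T, 18 of 25 against 1 lower, with a median of 0.4, and split in MDA-MB-231, with 8 of 23 higher, 6 lower and a median of 0.05. 293T carries viral T antigen and MDA-MB-231 a mutant p53. CDKN1A, the p21 inhibitor of cyclin kinases, stood at 33.3, 33.7 and 33.1 CPM with shKDM5A-1 against 65.2, 65.3 and 64.8 with shKDM5A-2 in 293T, a log2 fold change of 0.96 (SE 0.04, adjusted p = 1.10e-18), and at 55.0, 60.1 and 61.8 and 62.2, 59.1 and 60.6 in MDA-MB-231, where it was 0.04 (SE 0.04, adjusted p = 0.463). PHLDA3, an inhibitor of AKT, had 1.06 in 293T and -0.45 in MDA-MB-231. Neuronal and synaptic genes were higher in both lines, 19 of 29 in 293T and 10 of 19 in MDA-MB-231, with 1 and 2 lower and medians of 0.51 and 0.33. SYP, synaptophysin, had 1.81 in 293T and 0.92 in MDA-MB-231, while STMN3 had 1.49 (SE 0.04, adjusted p = 4.15e-23) in 293T and -0.20 (SE 0.14, adjusted p = 0.232) in MDA-MB-231. TUBB3, a neuronal tubulin, had 1.22 in 293T and -0.29 in MDA-MB-231. JUN, an immediate early gene, was lower in 293T, at 655, 644 and 655 against 307, 309.8 and 304 CPM, and its log2 fold changes were -1.09 (SE 0.02, adjusted p = 1.07e-27) in 293T and 0.04 (SE 0.03, adjusted p = 0.219) in MDA-MB-231. ITGB1, the common integrin beta chain, had -0.82 in 293T and -1.16 in MDA-MB-231. In the remaining lists, markers of cell types aside, the medians ran between -0.33 and 0.27 in both lines.

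**Figure D5:**
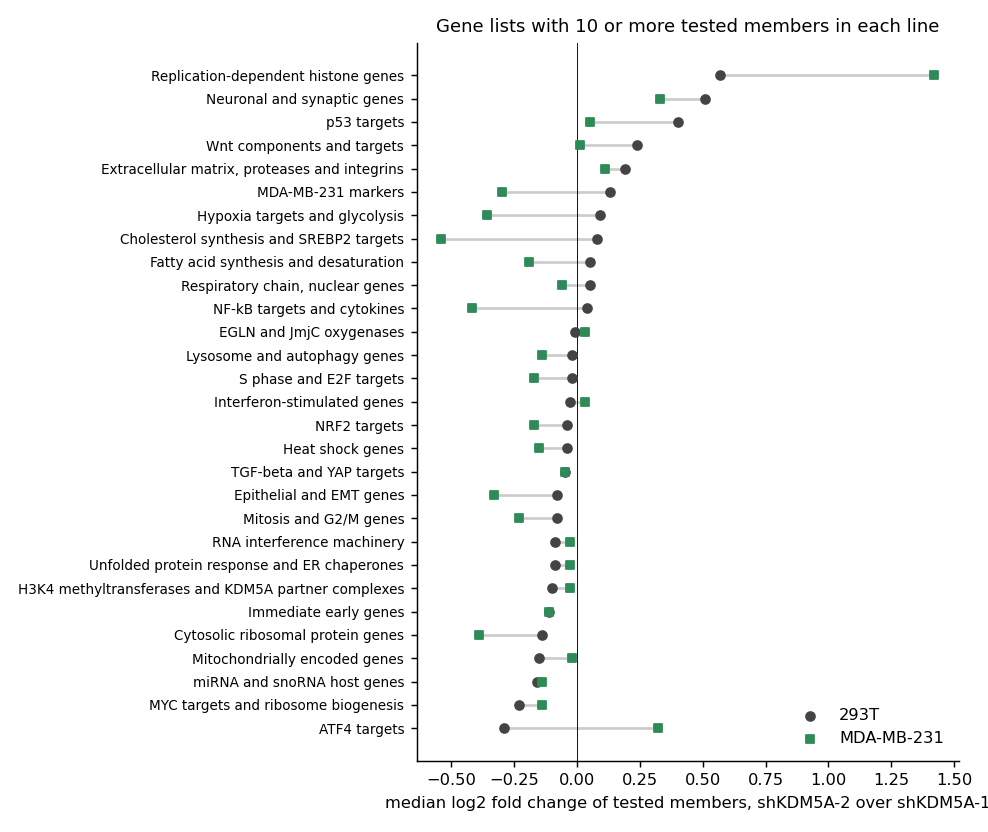
Median log2 fold change of shKDM5A-2 over shKDM5A-1 (x axis) over the tested members of 29 gene lists with at least 10 tested members in each line, in 293T (circles) and MDA-MB-231 (squares). Histone genes have the highest medians in both lines, at 0.57 and 1.42, and ATF4 targets lie on opposite sides of 0, at -0.29 and 0.32.

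The difference itself was tested in 1 fit of the 12 libraries, as the change in MDA-MB-231 minus that in 293T. It was called for 6433 of 14711 genes (43.7%), and 675 of these were at least 2-fold (4.59%). Among genes called opposite ways, GDF15, a stress cytokine, stood at 3.50, 3.26 and 2.64 and 5.79, 5.62 and 5.21 CPM in 293T and at 41.4, 40.5 and 45.0 and 12.3, 12.96 and 12.8 in MDA-MB-231. It was higher with shKDM5A-2 in 293T, 0.82 (SE 0.14, adjusted p = 1.47e-05), and lower in MDA-MB-231, -1.73 (SE 0.06, adjusted p = 4.98e-19). ZNF385A, a zinc finger protein, had 1.00 in 293T and -1.20 in MDA-MB-231, and ANK2, an ankyrin of the membrane skeleton, had -0.97 in 293T and 0.64 in MDA-MB-231. TNC, the matrix protein tenascin C, stood at 78.4, 72.6 and 73.9 and 215, 216 and 218 CPM in MDA-MB-231, a log2 fold change of 1.53 (SE 0.03, adjusted p = 2.69e-24). In 293T it was at 2.02, 2.75 and 2.24 and 1.72, 1.56 and 1.28 CPM, -0.63 (SE 0.22, adjusted p = 0.0203), a call that DESeq2 (adjusted p = 0.11) and the fits without shKDM5A-1 replicate 2 (adjusted p = 0.126) or shKDM5A-2 replicate 3 (adjusted p = 0.0939) did not give.

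The largest changes were also read in each line by itself, several of them in genes of low level. They were picked without regard to the other line, and ANXA1, given below for 293T, was also lower in MDA-MB-231 (-0.49). In 293T, ASTN1, an astrotactin of neurons, went from 0.178, 0.281 and 0.402 CPM with shKDM5A-1 to 4.17, 4.47 and 4.57 with shKDM5A-2, a log2 fold change of 3.91 (SE 0.27, adjusted p = 7.02e-14). INPP5D, a phosphatase of phosphoinositides, went from 1.37, 1.46 and 1.43 to 13.8, 13.8 and 12.4, 3.23 (SE 0.13, adjusted p = 1.46e-19). ANXA1, a membrane-binding annexin, was the lowest, from 6.41, 6.91 and 7.57 to 1.10, 0.989 and 1.14, -2.68 (SE 0.17, adjusted p = 1.07e-14), and SNAI2, a repressor of epithelial genes, went from 60.2, 59.8 and 61.7 to 17.8, 20.4 and 19.99, -1.64 (SE 0.05, adjusted p = 2.65e-22). In MDA-MB-231, ACTG2, a smooth muscle actin, went from 1.62, 1.66 and 1.498 to 12.8, 13.6 and 14.6 CPM, 3.10 (SE 0.13, adjusted p = 9.25e-18). SCG2, a secretogranin, had 2.83. CSPG4, a membrane proteoglycan, had -2.62, with shControl at 14.6 ± 1.67 CPM (SD, n = 3), between both hairpins. The words were also counted in the 8 highest and 8 lowest genes per line, all with an annotated 3′ UTR. At least 1 of the 3 words stood in 2 and 2 in 293T and in 1 and 1 in MDA-MB-231. AGGGACA stood in 3 of the highest and 0 of the lowest in 293T. In MDA-MB-231 it stood in 0 of the highest and 4 of the lowest, against the direction of its coefficient. Among all genes tested in both lines, 25.2% carried at least 1 of the 3 words and 14.3% carried AGGGACA.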

How the data were processed

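RNA-seq of total RNA was analysed in 12 shKDM5A libraries, 3 per hairpin and line, with the 6 shControl libraries used as a description and in 1 alternative fit. The authors deposited 1 table per line of estimated counts per gene (expected counts, not whole numbers), of which 49.3% of values in 293T and 50.4% in MDA-MB-231 were whole. The lowest row maximum was about 10 counts in each table, so genes below that were not analysed here. The submitters' processing notes name STAR 2.4.2, Salmon 0.1.19, GRCh38 and hg19, without saying which step used which, and strand is not given in the sources used here, so reads of overlapping or antisense genes cannot be told apart. In the tables, 22 and 20 gene names had turned into dates. These were left out, with 0.209% and 0.2% of the counts.

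Counts were rounded. Each line was fitted by itself with edgeR 4.0.16 (R 4.3.3, limma 3.58.1): TMM scaling, a minimum of 10 counts by filterByExpr, robust quasi-likelihood F-tests, two-sided, and Benjamini-Hochberg adjustment over all genes tested, with calls at an adjusted p under 0.05. The SE is the absolute log2 fold change over the square root of F. All log2 fold changes are this fit's, computed from the deposited counts. A joint fit of the 12 libraries tested the difference between lines. Total counts per shKDM5A library were from 16611711 to 21574335, and replicates differed by more than sampling noise (chi-square per degree of freedom from 1.33 to 2.67). The code was tested on simulated data. Residuals of same-numbered libraries had correlations from -0.0663 to 0.0101, so the replicate numbers were not read as pairs.

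3′ UTRs were the longest per gene in GENCODE 29 (GRCh38), of at least 20 bases, and 13983 of 18148 genes matched one by name. Words were searched on the transcript strand, and overlapping matches of the 3 leading words count as 1 place. Alternatives were DESeq2 1.42.0, median-of-ratios scaling, no filter or an average log2 CPM of at least 1, a replicate block, controls in the fit, leaving out each library, other thresholds, 6-base words and no UTR terms. Tables and figures were made with Python 3.11.15, numpy 2.4.6, pandas 2.3.3 and matplotlib 3.10.9.

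The named genes are KDM5A, KDM5B and KDM5C, the 12 highest and 12 lowest genes called the same way in both lines by the smaller absolute log2 fold change, the 8 highest and 8 lowest per line, the 5 each way called opposite ways, all with an average log2 CPM of at least 1, and up to 4 called members per list by the smallest p. The text gives a selection of these. The members and lists were chosen with earlier results of these data known. The leading 4 words, their longer and repeated forms, the printed places, the coding-sequence, zinc finger and histone-copy counts, the control positions and the medians per library were chosen after their values were seen.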

Additional observations from a re-analysis of the deposited data

Results flagged for a closer look

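Among the named genes in the joint fit of the 12 libraries, 136 of 167 differed between lines at an adjusted p under 0.05. Listed here are the 12 of these whose difference was at least 4-fold, a minimum chosen after the values were seen. The other 124 were under 4-fold or had a group at 0 in all its libraries, as HIST2H3A had. The values are the log2 fold change of shKDM5A-2 over shKDM5A-1 in MDA-MB-231 minus that in 293T, with adjusted p by edgeR's quasi-likelihood test.

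In 4 genes the change was more positive in MDA-MB-231. SPNS2, a sphingosine-1-phosphate transporter, differed by 4.02 (SE 0.28, adjusted p = 2.93e-13), with 4.47 in MDA-MB-231 and 0.44 in 293T, where it was not called (adjusted p = 0.063). MYH15, a myosin heavy chain, differed by 2.57 (SE 0.33, adjusted p = 1.13e-07) and was not called in 293T (adjusted p = 0.643). TNC differed by 2.14 (SE 0.19, adjusted p = 6.54e-11). ANXA1 differed by 2.18 (SE 0.13, adjusted p = 1.13e-14) and was lower with shKDM5A-2 in both lines, by -2.68 in 293T and -0.49 in MDA-MB-231.

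In 8 genes the change was more negative in MDA-MB-231. CSPG4 differed by -2.85, PALM, a membrane phosphoprotein, by -2.79, and MDK, the growth factor midkine, by -2.67, and these had small positive changes in 293T, of 0.22, 0.33 and 0.17. SERINC2 differed by -2.15 and CFB, complement factor B, by -2.05 (SE 0.53, adjusted p = 0.00628), with CFB not called in 293T (adjusted p = 0.768). GDF15 differed by -2.57, PLA2G4B, a phospholipase, by -2.35 and ZNF385A by -2.22, and these were higher with shKDM5A-2 in 293T and lower in MDA-MB-231. The 293T call of PLA2G4B was lost with the controls in the fit (adjusted p = 0.0877).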

How the results depend on the processing

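The counts of calls depended most on a fold minimum. With at least 1.5-fold there were 1751 calls in 293T, 2207 in MDA-MB-231, 396 called the same way, 44 called opposite ways and 1643 for the difference between lines. The share of calls that were higher then went from 42.5% to 62.4% among genes called the same way and from 45.8% to 29.5% (higher in MDA-MB-231) among those called opposite ways. Genes called opposite ways numbered 701 with DESeq2 and 748 at an adjusted p under 0.01, against 1192. Leaving out each library in turn gave 7649 to 7954 calls in 293T, 7959 to 8531 in MDA-MB-231, 3406 to 3739 the same way, 1043 to 1149 opposite ways and 5940 to 6174 for the difference. With a replicate block the counts were 8354, 8370, 3549, 1120 and 6141. Fits that leave out a library test slightly different numbers of genes.

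KDM5A kept its direction in all alternatives run. In MDA-MB-231 its log2 fold change was 0.17 with DESeq2, 0.17 with the replicate block and 0.16 with controls in the fit, none past the threshold (adjusted p = 0.167, 0.055 and 0.0636), and 0.17 missed the threshold of 0.01. Without each library it ran from 0.14 to 0.20 in MDA-MB-231 and from 0.19 to 0.23 in 293T. No named gene that was called changed sign. Apart from KDM5A, DESeq2 moved 10 of 348 values of named genes, 1 per gene and line, out of the calls, the replicate block 2 and controls in the fit 1 (PLA2G4B in 293T), and the fits without a library 27 of 2088.

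No coefficient of the 4 leading words changed sign, while 8 of the other 23 leading words did under at least 1 alternative. Without each library, AAGCCTT ran from -0.127 to -0.120 in 293T and -0.125 to -0.115 in MDA-MB-231, AGCCTTA from -0.120 to -0.111 and -0.157 to -0.147, GCCTTAC from -0.121 to -0.111 and -0.207 to -0.197, and AGGGACA from 0.119 to 0.129 and 0.118 to 0.126. With 6-base words the coefficients were -0.061 and -0.073 for AAGCCTT, -0.088 and -0.104 for AGCCTTA, -0.084 and -0.133 for GCCTTAC and 0.094 and 0.09 for AGGGACA. Without UTR length and GC terms they were -0.058 for AAGCCTT in MDA-MB-231, -0.125 and -0.092 for AGCCTTA, -0.154 for GCCTTAC in MDA-MB-231 and 0.147 and 0.133 for AGGGACA. With an average log2 CPM of at least 1 they were -0.113 for AAGCCTT in MDA-MB-231, -0.124 for AGCCTTA in 293T, -0.212 for GCCTTAC in MDA-MB-231 and 0.112 for AGGGACA in MDA-MB-231. The cause was not tested. Genes with few counts limit the values of the lowest genes named, such as ASTN1 and SYT11.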

Other observations

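Other lists held members that differed in the same direction in both lines, as did 26.8% of all 13743 genes tested in both. For the counts in this section, 24.7% of all genes tested were higher and 25.6% lower in 293T. In MDA-MB-231 the shares were 28.7% and 29%, and no list was tested. Of 35 lysosome and autophagy genes, 13 were lower and 11 higher with shKDM5A-2 in 293T, and 20 were lower and 6 higher in MDA-MB-231. Besides LAMP1, ATP6V0E1, a subunit of the proton pump that acidifies lysosomes, had log2 fold changes of -0.65 in 293T and -0.67 in MDA-MB-231, and SQSTM1, the autophagy receptor p62, had -0.35 and -0.67. Of 40 S phase genes and E2F targets, 14 were lower and 9 higher in 293T and 23 were lower and 5 higher in MDA-MB-231. Members of the replicative helicase were among the higher ones, with MCM3 at 0.43 and 0.37 and MCM6 at 0.41 and 0.44. In the NRF2 list, FTL, the ferritin light chain, had -0.47 and -1.22 and TXN, thioredoxin, -0.35 and -0.68, while TALDO1, of the pentose phosphate pathway, had 0.74 and 0.36. HSPB1, a small heat shock protein, had -0.74 and -0.94.

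Matrix and adhesion genes were more often higher than lower, 21 against 8 of 42 in 293T and 24 against 15 of 46 in MDA-MB-231. COL6A1, a collagen VI chain, had 0.83 and 0.36, and LAMC1, a laminin chain, went the other way with -0.82 and -0.26. Of the Wnt list, CTNNB1, beta-catenin, had -0.43 and -0.56, and CCND1, cyclin D1, had 0.55 and 0.28. Of 13 mitochondrially encoded genes, 10 were lower and 0 higher in 293T, and 4 were lower and 4 higher in MDA-MB-231. Interferon-stimulated genes counted 6 higher and 7 lower of 30 in 293T and 18 higher and 15 lower of 46 in MDA-MB-231, where GBP1, an interferon-induced GTPase, had 2.05 and was not tested in 293T. All members given here with both values were called in both lines at an adjusted p under 0.05 by edgeR's quasi-likelihood test.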
